A study of Mus musculus with 7 samples.

Results

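The genes described here are those whose symbol starts with Nduf, which encode the nuclear subunits of respiratory complex I and several of the factors that assemble it. The rule that chose them is the symbol alone. The RefSeq annotation of mouse lists 54 such symbols, 41 of them had a probe on the array, and 35 could be tested, among 16939 items tested in all (11824 named genes and 5115 transcripts without a symbol). The samples were 3 prostates of the PB-NICD model and 4 control prostates, all of mice on a C57Bl/6 background. PB-NICD mice carry the ARR2PB-Cre transgene, whose probasin-based promoter drives Cre recombinase in prostate epithelium, together with ROSA(N1IC), an allele at the Rosa26 locus that yields the Notch1 intracellular domain (NICD, the active form of the receptor) once Cre has acted. Per the labels these mice develop prostatic intraepithelial neoplasia, a precursor lesion. Control mice carry ROSA(N1IC) without the Cre, so the silent allele is common to both groups. The labels used here give no age, and do not say whether each sample came from 1 animal, so p-values measure only the spread between these samples.

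Complex I takes electrons from NADH, passes them to ubiquinone and pumps protons across the inner mitochondrial membrane. A peripheral arm holds the N module, which oxidises NADH, and the Q module, which reduces ubiquinone. The membrane arm, with a proximal and a distal part, holds the proton channels, which mitochondrial DNA encodes, and many nuclear accessory subunits around them. Assembly factors bind intermediates during construction and leave the finished enzyme. In prostate the respiratory chain is of interest because the secretory epithelium accumulates and exports citrate in place of oxidising it fully.

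Each RNA was labelled red and hybridised with a green-labelled universal mouse reference RNA, so a value here is the log2 ratio of prostate over reference for 1 probe, and a change is the mean ratio in PB-NICD minus the mean in control. Such ratios compare samples for the same gene and say nothing of which gene is more abundant. The sample channel was dim, with a median spot signal of 88 to 107 on the PB-NICD arrays and 69 to 87.5 on the control arrays over a local background of 53 to 55. Even so, 34 of the 35 tested Nduf genes were well above background on all 7 arrays; Ndufaf1 was so on 3 PB-NICD and 2 control arrays. Arrays were printed on 2 slides, with PB-NICD 1, control 1 and control 2 on slide 1 and the other 4 on slide 2. Notch1, the gene whose intracellular part the transgene encodes, was read first as a check of the labels. On arrays PB-NICD 2 and 3 its log2 ratio was 2.58 and 2.72, against 0.05, 0.30, 0.84 and 0.67 on control 1 to 4, a change of 2.18 (SE 0.21, adjusted p = 0.000228). The Notch1 spot of PB-NICD 1 was an outlier spot left out of that fit, and it read 2.46.

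Several accessory subunits of complex I were lower in PB-NICD prostates. Of 35 tested Nduf genes, 7 were called lower and none was called higher in PB-NICD (limma, two-sided, Benjamini-Hochberg over all items, threshold 0.05). Among all items 4.59% were called lower and 3.5% higher. The 7 were Ndufv3, Ndufa2 and Ndufs6 of the N module, Ndufa1 and Ndufc1 of the proximal membrane arm, and Ndufb9 and Ndufb4 of the distal arm. Their levels relative to the reference were 1.36 to 2.24 times as high in control as in PB-NICD. Another 22 members had a negative change without passing the test, and 6 had a positive one; 54.1% of all items had a negative change. The counts at an unadjusted p below 0.05 were 12 negative and 2 positive, where 12% and 8.95% of all items had such a p. All PB-NICD values lay below all control values for 14 members, a pattern that 14.1% of all items showed, and above them for Ndufaf1 alone, where 10.5% of items did so. The median change of the 35 was -0.23, beside -0.02 over all items.

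**Figure D1:**
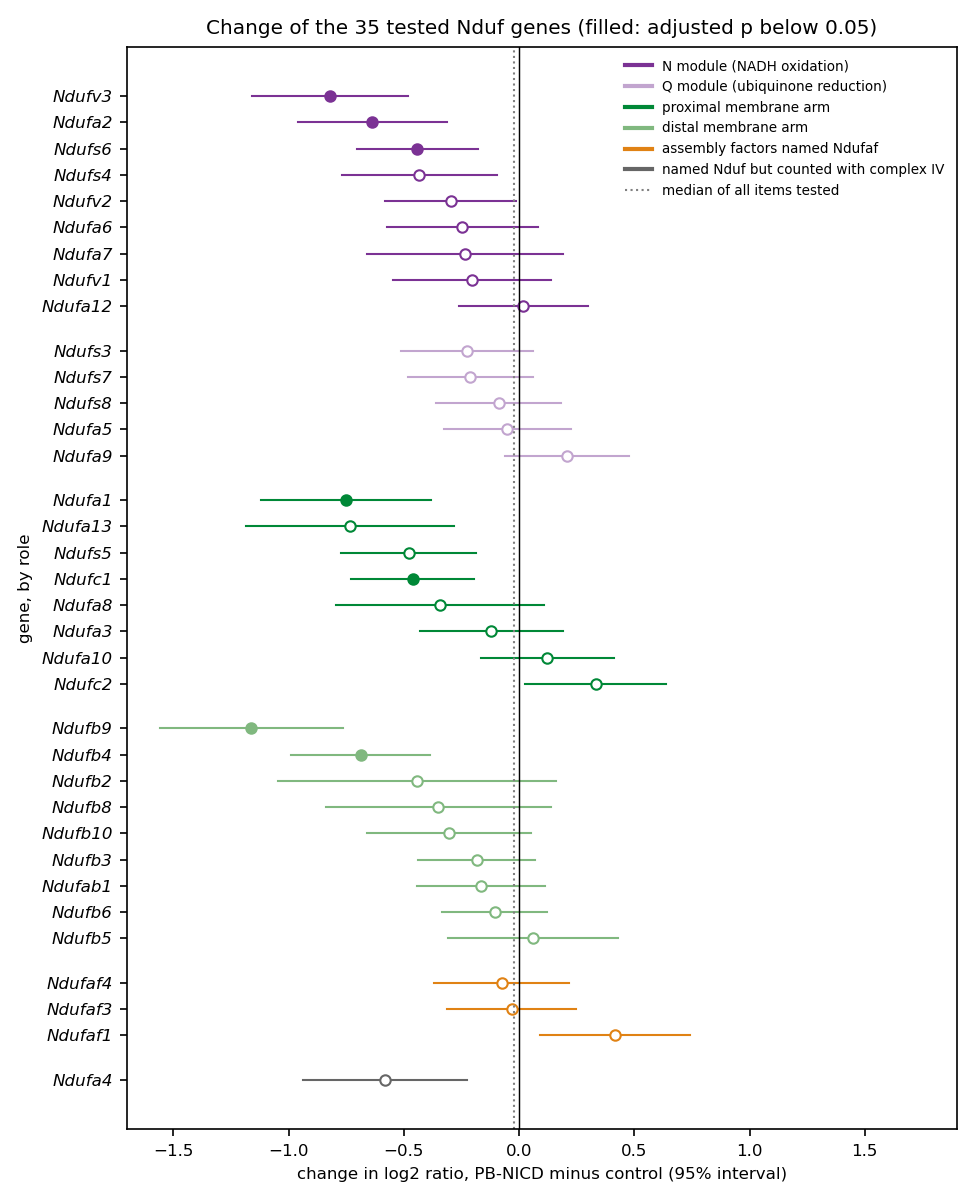
Change in log2 ratio (x axis, PB-NICD minus control) of the 35 tested Nduf genes, grouped by role down the page. Bars are 95% intervals, filled points have an adjusted p below 0.05, and the dotted line is the median of all items at -0.02. The 7 filled points all lie left of 0, and none belongs to the Q module or to the assembly factors.

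The calls were lost when the intensity-dependent (loess) normalization was replaced by centring each array's ratios on their median. There the median over all items itself moved to 0.31, the members' median was 0.32, and the difference between them was 0.01 where the main setting gave -0.21. Under that centring none of the members was called lower (0 at an unadjusted p below 0.05 too), 9 were called higher, and 17 of 35 lay below the shifted median, against 29 of 35 in the main setting. The 7 genes named above all had values below the shifted median of 0.314 there. Their values ran from -0.22 for Ndufb9 and -0.07 for Ndufv3, the only negative ones, to 0.312 for Ndufs6. Those 7 were picked for low values on these same arrays, so their place below that median is no separate support. The split of calls over all items was 251 lower and 5335 higher there, beside 778 and 593 in the main setting.

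The N module, which carries the flavin and the chain of iron-sulphur clusters that NADH's electrons enter, had 3 of 9 tested members called lower. Ndufv3, an accessory subunit next to the NADH-binding flavoprotein, had log2 ratios of 0.33, 0.50 and 0.85 on PB-NICD 1 to 3, against 1.58, 1.27, 1.50 and 1.18 on control 1 to 4. The groups did not overlap, and the change was -0.82 (SE 0.15, adjusted p = 0.00732). This rests on the brightest of 3 Ndufv3 probes; the other probes gave differences of 0.09 and 0.08, so the array's probes for this gene disagree. With the mean of its probes as the gene's value, Ndufv3 was not called (adjusted p = 0.213).

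Ndufa2, an accessory subunit with a thioredoxin-like fold, read 1.12, 1.10 and 1.28 on the PB-NICD arrays and 2.11, 1.86, 1.75 and 1.49 on the control arrays. Its change was -0.64 (SE 0.15, adjusted p = 0.0229), with every PB-NICD value below every control value. Ndufs6, a zinc-binding accessory subunit added late in assembly, read 1.65, 1.63 and 1.85 in PB-NICD and 2.34, 2.16, 2.10 and 2.01 in control. The change was -0.44 (SE 0.12, adjusted p = 0.0476), and its other 2 probes gave differences of -0.37 and -0.45, in the same direction and of like size. Ndufs6 lay nearest the threshold of the 7, and its call was lost in each of the 7 fits that left out an array, with changes of -0.51 to -0.38.

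The most positive member of this module was Ndufa12, an accessory subunit at the contact with the Q module. It read 1.28, 1.15 and 1.06 in PB-NICD and 1.27, 1.15, 1.26 and 0.89 in control, which overlap, with a change of 0.02 (SE 0.13, adjusted p = 0.956). The 6 members of the module that were not called, among them Ndufv1, which binds NADH, and the core subunit Ndufv2, had changes of -0.43 to 0.02. The lowest of these was Ndufs4, an accessory subunit whose loss in mice causes a fatal encephalopathy, at -0.43 (adjusted p = 0.126). Its outlier spot on PB-NICD 3, left out of that value, read 1.43, above every control value, and with it kept the difference was -0.24. For Ndufa7 the other probe went the opposite way, with a difference of 0.36 where the brightest gave -0.23.

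No member of the Q module passed the test, with 5 tested and changes of -0.23 to 0.21 (limma; none had an unadjusted p below 0.05 either). Ndufs3, a core subunit of the module, read 0.76 and 0.83 on PB-NICD 2 and 3, its spot on PB-NICD 1 being left out, against 0.98, 0.97, 0.95 and 1.18 on the controls. The groups did not overlap, but the change of -0.23 had an adjusted p of 0.365. Ndufs7, which holds the last iron-sulphur cluster before ubiquinone, read 0.69, 0.69 and 0.66 in PB-NICD and 1.05, 0.70, 1.05 and 0.77 in control (change -0.21, SE 0.12, adjusted p = 0.376). PB-NICD values of Ndufs7 sat just under the lowest control. Ndufa9, which lies near the ubiquinone site, was the most positive, at 0.93, 0.90 and 0.61 in PB-NICD and 0.73, 0.67, 0.49 and 0.54 in control, overlapping, with a change of 0.21 (SE 0.12, adjusted p = 0.379). The median change of the module was -0.09, beside -0.30 in the N module; the difference between modules was not tested.

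The proximal membrane arm had 2 of 8 tested members called lower and a median change of -0.40. Ndufa1, a small X-linked subunit with a membrane anchor that early assembly needs, read 2.89, 2.89 and 3.11 in PB-NICD and 3.93, 3.37, 4.02 and 3.53 in control. Its change was -0.75 (SE 0.17, adjusted p = 0.0191), and its second probe gave a difference of -0.55. Ndufc1, a small accessory membrane subunit, read 1.20, 1.25 and 1.45 in PB-NICD and 1.93, 1.79, 1.73 and 1.60 in control. The change was -0.46 (SE 0.12, adjusted p = 0.0415), both probes gave -0.46, and the groups of either gene did not overlap.

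Ndufc2, the partner of Ndufc1 in the same part of the arm, was the most positive of these genes. It read 1.75, 2.01 and 2.18 in PB-NICD and 1.82, 1.56, 1.75 and 1.47 in control, overlapping through PB-NICD 1, with a change of 0.33 (SE 0.14, adjusted p = 0.195). The 6 members not called, Ndufc2 among them, ranged from -0.73 to 0.33. Ndufs5, an accessory subunit on the intermembrane-space side, and Ndufa13, also known as GRIM-19, came nearest to the threshold and were picked out after their values were seen. The change of Ndufs5 was -0.48 (adjusted p = 0.0531) and that of Ndufa13, with 2 spots missing, -0.73 (adjusted p = 0.0604), and neither gene's groups overlapped. The change of Ndufa8, -0.34, came with a difference of 0.78 in the green reference channel and 0.43 in the red sample channel. With outlier spots kept the difference was -0.20, and the other Ndufa8 probe went the opposite way, with a difference of 0.07.

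In the distal membrane arm 2 of 9 tested members were called lower, with a median change of -0.30. Ndufb9, an accessory subunit of the LYR-motif family that binds the mitochondrial acyl carrier protein Ndufab1, had the most negative change of the 35 members. It read 0.73 and 0.43 on PB-NICD 1 and 2, against 1.88, 1.86 and 1.49 on control 1, 2 and 4. The change was -1.16 (SE 0.17, adjusted p = 0.00423), with the spots of PB-NICD 3 and control 3 left out as outliers. With those spots kept they read 1.07 and 1.44, the groups still did not overlap, and the difference was -0.92. Ndufb4, another accessory subunit of this arm, read 1.28, 1.22 and 1.49 in PB-NICD and 2.14, 2.23, 1.83 and 1.87 in control, a change of -0.69 (SE 0.14, adjusted p = 0.0103) with no overlap.

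Ndufb5, a membrane-spanning accessory subunit, was the most positive here, at 0.20, 0.22 and 0.41 in PB-NICD and 0.69, 0.13, 0.03 and 0.02 in control (change 0.06, SE 0.17, adjusted p = 0.888). Control 1 stood above all other arrays for this gene. The 7 distal members not called had changes of -0.44 to 0.06. For Ndufab1 the other probe gave a difference of 0.51, where the probe used gave -0.16.

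**Figure D2:**
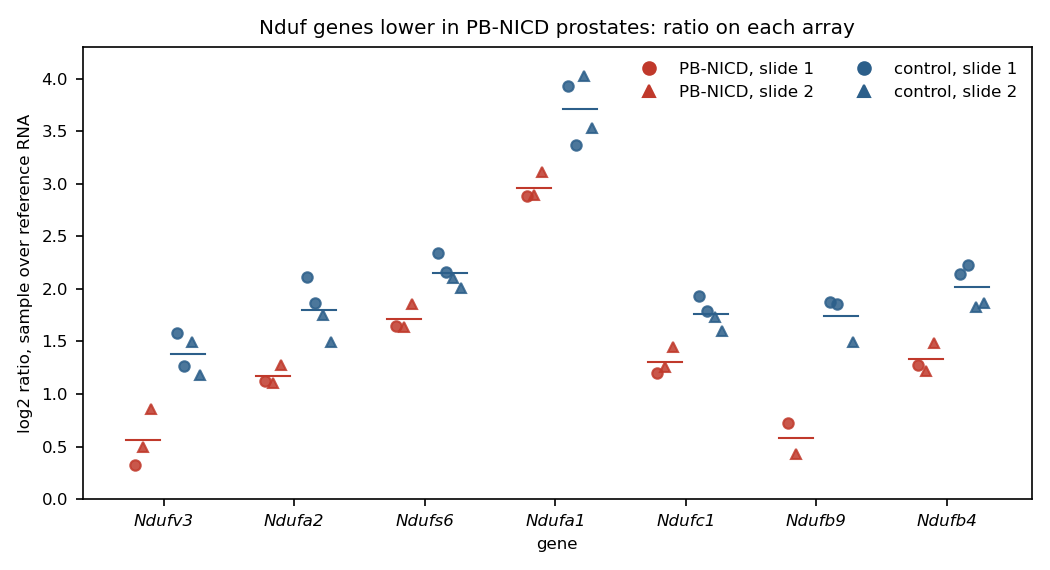
Log2 ratio of sample over reference RNA (y axis) on each array for the 7 Nduf genes called lower, with PB-NICD in red on the left of each pair and control in blue on the right. Circles are slide 1, triangles slide 2 and lines the group means; Ndufb9 lacks PB-NICD 3 and control 3. No PB-NICD point reaches a control point of the same gene, and for Ndufb9 the means are 0.58 in PB-NICD and 1.74 in control.

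Among the assembly factors named Ndufaf, none of the 3 tested was called (limma; at an unadjusted p below 0.05, 1 was higher and 0 were lower). Ndufaf1, a factor of early membrane-arm assembly, read 0.81, 0.69 and 0.59 in PB-NICD and 0.01, 0.13, 0.44 and 0.55 in control. It was the only member with every PB-NICD value above every control value, and the change was 0.42 (SE 0.15, adjusted p = 0.122). Ndufaf4, which acts on the Q module, read 0.40, 0.53 and 0.63 in PB-NICD and 0.47, 0.40, 0.84 and 0.68 in control, overlapping (change -0.08, SE 0.13, adjusted p = 0.807). Ndufaf3, its partner, had a change of -0.03. Ndufa4, named for complex I but a subunit of cytochrome c oxidase, read 1.52, 1.31 and 1.79 in PB-NICD and 2.45, 2.15, 1.87 and 2.01 in control. The groups did not overlap, and its change of -0.58 (SE 0.16) just missed the threshold at an adjusted p of 0.0528.

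Of the 28 members not called, 26 had 95% intervals that lay wholly within 1 of 0 on the log2 scale, and 13 lay within 0.5 of 0. A 2-fold change therefore lies outside the interval of 26 of them. There were 6 genes with a probe that could not be tested. Among them Ndufs1, a core subunit, and Ndufb7 and Ndufb11, of the distal arm, were well above background on every array but had too few spots left after outlier spots were removed; with those spots kept their differences were 0.01, -0.46 and -0.44. Ndufaf5 and Ndufaf7 were too dim. The other 13 symbols, Ndufa11, Ndufb1, Ndufa4l2, Ndufaf2, Ndufaf6, Ndufaf8, Ndufb4b, Ndufb4c and 5 pseudogenes, had no matched probe.

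Array by array, the median over the 25 members with all 7 values was 0.93, 0.98 and 1.06 on PB-NICD 1 to 3, against 1.27, 1.14, 1.26 and 1.10 on control 1 to 4. The PB-NICD medians were all below the control medians, though PB-NICD 3 and control 4 were close. Each PB-NICD array could also be set against the controls of its own slide. Of the members measured, 24 of 34 on PB-NICD 1 lay below both same-slide controls. The counts were 19 of 31 on PB-NICD 2 and 19 of 32 on PB-NICD 3. The share of all items below the controls of the same slide was not computed, so no baseline stands beside these counts. Below all control arrays were 18 of 34, 17 of 31 and 15 of 32, where 28.7%, 34.4% and 26.2% of all items were. In a fit with a contrast for each slide, the members' median was -0.32 on slide 1 and -0.18 on slide 2. The slide 1 value rests on a lone PB-NICD array, assumed to vary like the others. On slide 2 that fit called Ndufb9 alone lower and no member higher, where 567 of all items were called lower and 425 higher.

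The count of calls moved with single arrays, for all items as for the members. It was 2 of 28 testable members without PB-NICD 1 and 1 of 31 without PB-NICD 2, where 439 and 407 items were called lower in all, beside 7 of 35 and 778 with all arrays. Without control 1 and without control 2 it was 4 of 35 each, where 610 and 573 items were called lower, and it was 7 or 8 without any of the others. On the slide 2 arrays alone, a fit added after the data were seen, limma called none of 27 members lower or higher. At an unadjusted p below 0.05 in that fit, 5 members were lower and 1 was higher. Over all items it called 327 lower and 292 higher. The members' median stayed between -0.28 and -0.16 over the 7 fits that left out an array. Ndufv3 was called in all 7 of those fits, and Ndufb9 in all 5 in which it could be tested, since without PB-NICD 1 or PB-NICD 2 it has a lone PB-NICD value. Ndufb4 was called in 6, Ndufa1 and Ndufa2 in 4 each, Ndufc1 in 2 and Ndufs6 in 0. Read from the red sample channel alone, the members' median change was -0.13 and Ndufv3 alone was called. There 21 of 35 members lay below the median of all items, against 29 of 35 in the main setting. For the 7 called genes the difference in the sample channel was -0.72 to -0.30 and that in the reference channel 0.09 to 0.44. Over all 35 members the median difference in the green reference channel was 0.15. That channel held the universal reference RNA on every array, so part of the members' change in ratio lay in the reference. The source of that difference was not tested.

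The other complexes of the respiratory chain were set beside complex I with gene lists drawn up for the purpose. In complexes II to V together, 11 of 37 tested genes were called lower and none higher, and the median change was -0.43. Of all items 4.59% were called lower and 3.5% higher, with a median change of -0.02. At an unadjusted p below 0.05 no listed gene of these complexes was higher, where 8.95% of all items were. In complex II, succinate dehydrogenase, Sdhb, Sdhd and Sdhc were called lower (changes of -0.71, -0.45 and -0.64) out of 4. In complex III, the cytochrome bc1 complex, 2 of 8 were: Uqcrq at -0.995 (adjusted p = 0.00253) and Uqcr11 at -1.05 (adjusted p = 0.00384), both small accessory subunits. Complex IV, cytochrome c oxidase, had 3 of 10, namely Cox7a2 at -0.74, Cox7b at -0.78 and Cox8a at -0.61. Complex V, the ATP synthase, had 3 of 15, Atp5g1 at -0.79, Atp5j2 at -0.61 and Atp5pb at -0.51. Under median centring in place of loess none of these 37 was called lower and 11 were called higher. Over all items 251 were called lower and 5335 higher under that centring, so the 11 have no meaning apart from that general shift.

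Uqcrq, the gene of complexes II to V with the lowest p among those listed, was picked out after its values were seen. It read 1.07, 0.94 and 1.25 in PB-NICD and 2.35, 2.12, 2.13 and 1.72 in control, with no overlap. Where 4.59% of all items were called lower, 1 of 12 assembly factors of complex I that are not named Nduf was. That was Dmac1, a factor of distal-arm assembly, at 0.91, 0.81 and 0.84 in PB-NICD and 1.82, 1.81, 1.63 and 1.38 in control (change -0.80, SE 0.13, adjusted p = 0.00342). No probe matched the subunits encoded in mitochondrial DNA. Of 13 tested genes for mitochondrial mass and its regulators, none was called (limma, none at an unadjusted p below 0.05 either). Their median change was 0.00, over changes of -0.28 to 0.26, with 6 negative and 7 positive.

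**Figure D3:**
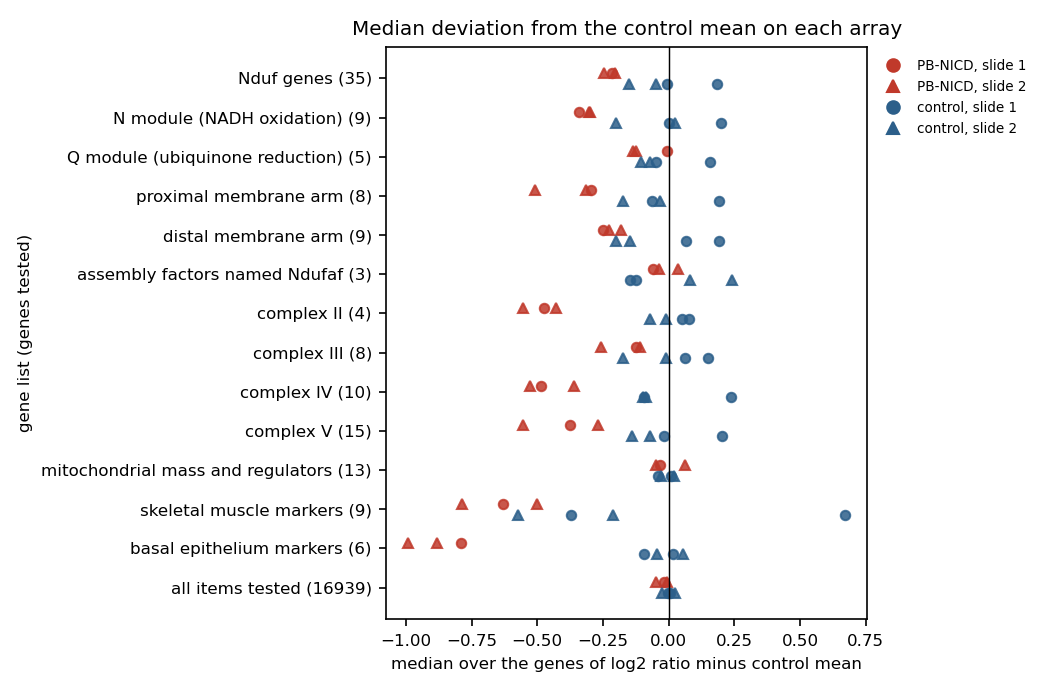
Median over each gene list of log2 ratio minus the control mean (x axis) for every array, with the number of tested genes after each list name and PB-NICD in red above control in blue. The Nduf genes lie between -0.24 and -0.20 on the PB-NICD arrays and between -0.15 and 0.18 on the control arrays, and the mitochondrial mass and regulator list lies near 0 on all arrays.

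Whole prostates hold several cell types, and with such samples fewer cells of a type and less RNA per cell cannot be told apart. Skeletal muscle, which surrounds the urethra and is rich in mitochondria, was read through 9 tested markers. All 9 had a negative change, where 54.1% of all items did, and none passed the test. An unadjusted p below 0.05 was found for 6 of them, where 12% of all items had one with a negative change. Over the 6 markers with all 7 values, the mean log2 ratio was 0.54 to 1.32 on the PB-NICD arrays. On the control arrays it was 1.40 to 2.98, the ranges not overlapping. None of the listed markers was below background on every array. Control 1 was the highest array for these markers and also for the Nduf genes, with median deviations from the control mean of 0.67 and 0.18. Without control 1 the members' median change was -0.16.

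Other tissue markers moved too. The shares of all items to set beside the counts below were 4.59% called lower and 3.5% called higher. Of 6 basal epithelium markers 4 were called lower (Krt5, Krt15, Lgals7 and Itga6), with mean ratios over the 5 with all 7 values of -0.02 to 0.19 in PB-NICD and 0.92 to 1.11 in control. Of 8 smooth muscle markers 3 were called lower, Tpm2, Actg2 and Cnn1, with mean ratios over the 3 with all 7 values of 1.05 to 1.51 in PB-NICD and 1.29 to 1.96 in control. Of 8 luminal markers, the keratin Krt19 was called higher and Tmprss2 and Cd24a were called lower. Krt19 had 2 PB-NICD and 4 control values, Tmprss2 had 3 and 2, and Cd24a had 2 and 2. The secretory protein probasin (Pbsn), the only luminal marker with all 7 values, read 9.67 to 10.1 in PB-NICD and 9.87 to 11.6 in control. Of 4 tested genes for secretory products of the prostate, limma called Sbp (-4.79, adjusted p = 0.0394) and Mmp7 (-2.36, adjusted p = 0.000887) lower. Sbp read 2.37, 4.73 and 9.41 on PB-NICD 1 to 3, the last close to the lowest control at 9.48. Mmp7 had 2 control values. The mean ratio over the 2 genes with all 7 values was 6.16 to 9.76 in PB-NICD and 9.91 to 11.5 in control. Of 3 tested urothelial genes Upk3a was called higher, at 5.04 (limma, adjusted p = 0.000366) on 2 arrays of each group. Upk1b and Upk2 were not called, with changes of -0.56 and 0.01. Of 2 tested seminal vesicle genes none was called (limma, none at an unadjusted p below 0.05 either). The 1 with all 7 values, Svs4, read 5.72, 0.71 and 0.67 on PB-NICD 1 to 3. On control 1 to 4 it read 2.36, 9.36, -0.02 and -0.28, so its highest values were on the slide 1 arrays. The part of these cell types in the Nduf result was not tested.

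The background correction of array PB-NICD 1 bears directly on the members. The usual correction fits a background distribution over all spots, and on this array a few spots with an extreme local background had net signals down to -47741, so that the fitted background mean was -220.1 in the sample channel, where the other 6 arrays gave -22.4 to -8.14. With that fit all 34 Nduf genes measured on PB-NICD 1 lay below the control mean, by a median of -0.67; with spots of outlying local background left out of the fit, 29 of 34 did, by a median of -0.22. The ratios of this array correlated with the authors' value table at 0.825 across items, which are not independent replicates, under the usual fit and at 0.991 under the other, which is the one used throughout; the 6 other arrays lay between 0.988 and 0.995. Under the usual fit 3 members were called lower (Ndufv3, Ndufb9 and Ndufb4) and the members' median was -0.35.

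**Figure D4:**
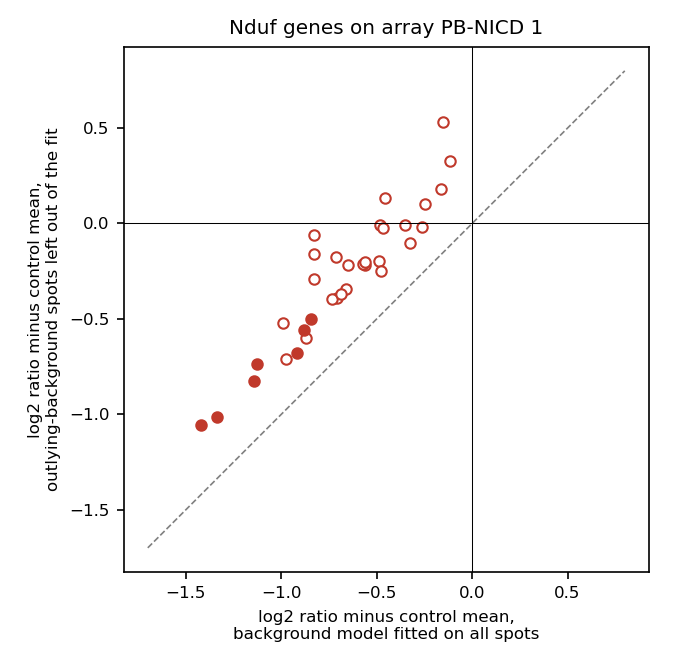
Log2 ratio minus control mean of 34 Nduf genes on array PB-NICD 1, with the background model fitted on all spots (x axis) and with spots of outlying local background left out (y axis). Filled points are the 7 genes called lower and the dashed line marks equal values; all points lie above it, the medians being -0.67 on the x axis and -0.22 on the y axis.

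Because some genes of oxidative phosphorylation carry sites for nuclear respiratory factor 1 (NRF1) in their promoters, the 250 bases before the transcription start were searched in the RefSeq promoters of assembly GRCm38.p6, which hold 33 of the 35 tested members. The NRF1 motif searched, on both strands, was GCGC, any base, then TGCGC. It occurred in 6 of 33 members (Ndufa5, Ndufa8, Ndufaf4, Ndufb4, Ndufs5 and Ndufs6) and in 4.23% of 26994 genes. Of the 5 called genes with a promoter in the table, Ndufb4 and Ndufs6 held it. They are shown because they are called lower and hold the motif, beside Ndufv3, which is called lower and lacks it. Each run ends at the base before the start, 5′ to 3′ on the gene's strand, and capitals mark the motif.
Ndufb4, chr16:37654369-37654618, strand -: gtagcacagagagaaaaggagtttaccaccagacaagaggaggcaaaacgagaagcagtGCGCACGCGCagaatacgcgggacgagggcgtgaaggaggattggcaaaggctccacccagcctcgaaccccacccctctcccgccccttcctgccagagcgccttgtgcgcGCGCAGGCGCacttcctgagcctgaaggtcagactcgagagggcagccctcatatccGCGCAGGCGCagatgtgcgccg
Ndufs6, chr13:73328483-73328732, strand -: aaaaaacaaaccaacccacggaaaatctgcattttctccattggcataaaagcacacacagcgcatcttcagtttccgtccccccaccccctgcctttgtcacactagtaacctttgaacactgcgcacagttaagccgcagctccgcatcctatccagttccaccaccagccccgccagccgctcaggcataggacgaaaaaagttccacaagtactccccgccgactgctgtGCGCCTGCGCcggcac
Ndufv3, chr17:31519865-31520114, strand +: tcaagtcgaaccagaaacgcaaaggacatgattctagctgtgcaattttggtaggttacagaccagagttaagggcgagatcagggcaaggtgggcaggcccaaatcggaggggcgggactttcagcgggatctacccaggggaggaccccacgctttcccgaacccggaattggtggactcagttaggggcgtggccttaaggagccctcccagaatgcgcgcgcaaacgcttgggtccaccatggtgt

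In Ndufb4 the 3 matches start 191, 79 and 22 bases before the transcription start, and in Ndufs6 the 1 match starts 16 bases before it. Another 3 motifs were searched on both strands in the same windows: the ETS motif CCGGAAG was in 3 of 33 members and 7.82% of genes, the E-box CACGTG in 2 of 33 and 6.86%, and the YY1 motif AAGATGGC in 0 of 33 and 1.82%. None of these 3 occurred in the 5 called genes, and no member held more than 1 of the 4 motifs. Among the members with the NRF1 motif, changes ran from -0.69 for Ndufb4 to -0.05 for Ndufa5. Over all 35 tested members they ran from -1.16 to 0.42, with 29 negative and 6 positive. A link between the motif and the change was not tested. A match describes these letters and shows no binding.

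**Figure D5:**
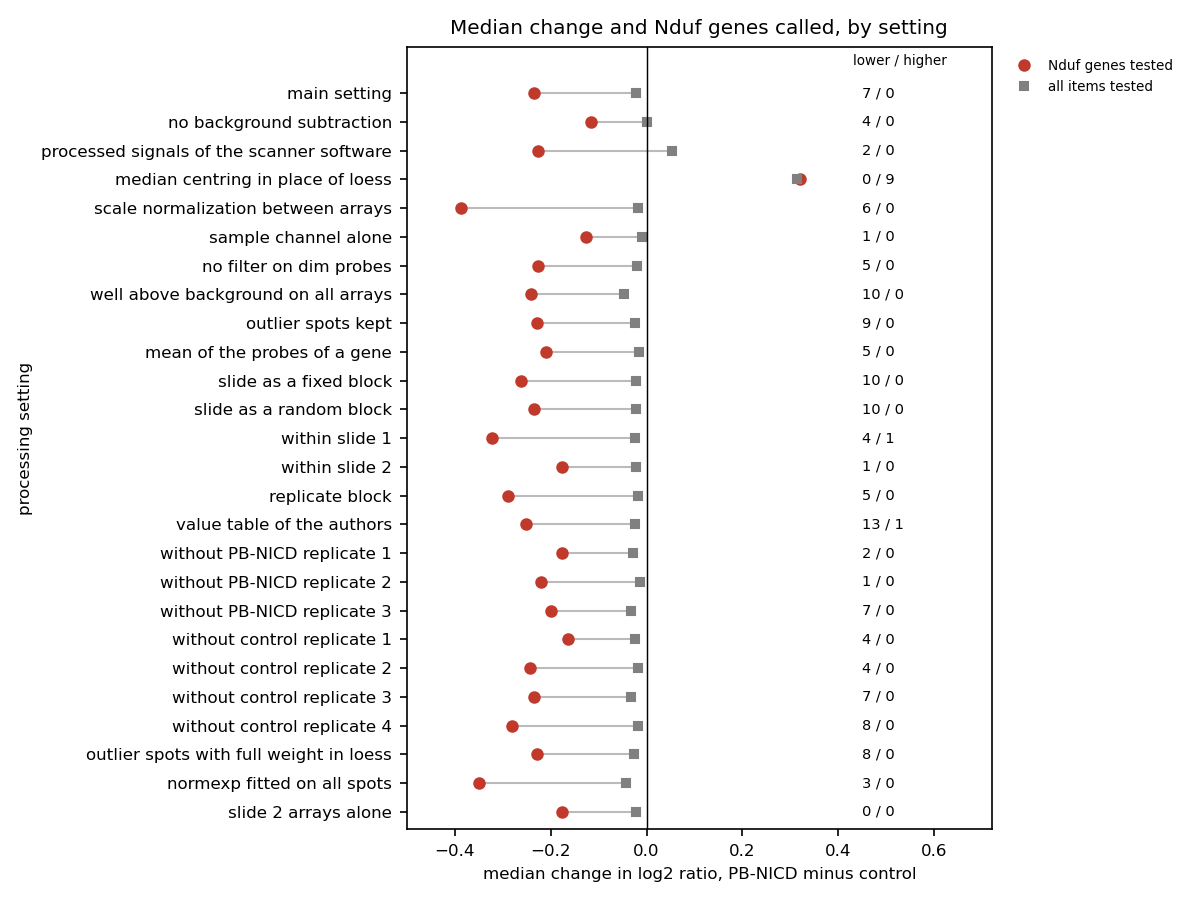
Median change in log2 ratio, PB-NICD minus control (x axis), of the tested Nduf genes (circles) and of all items tested (squares) under each processing setting down the page, with the numbers of Nduf genes called lower and higher at the right. The circle lies left of the square in all settings but median centring, where 0.32 and 0.31 nearly coincide.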

How the data were processed

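Per the file headers, the authors scanned 2-colour Agilent arrays, 1 per sample, with Feature Extraction 10.7.3.1. The deposited files give the intensity of each spot and its local background; per the labels, sample RNA was red and reference RNA green, with no dye swap. The authors' value table, in log2 ratio, was deposited without a stated method, and its normalization steps are not given in the sources used here; the authors' scanner files also hold log10 of red over green per spot, per the file headers, and both were used only to check direction and, for the table, as an alternative. Array coordinates are of an older build and were not used.

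From the median spot signals, background was corrected by normexp (offset 50) and ratios normalized by loess with outlier spots at weight 0, in limma 3.58.1 (R 4.3.3). The normexp parameters were fitted without spots of outlying local background, a choice made after the data were seen. 1 untested member is not reported here. Outlier and control spots (1639 of 45018) were left out. Of 41174 probes 24375 had a RefSeq symbol, matched by accession. A probe was tested if well above background on at least 3 arrays with at least 2 values per group, and a gene is its brightest tested probe. PB-NICD and control were compared by lmFit and eBayes with group as the only term. The fit was tested on simulated data with known changes. Alternatives were run on background, normalization, filter, probe rule, outlier spots, slide, replicate block, single arrays and the authors' table. Members, lists and roles were chosen with earlier results of these data known. Described with values on every array were the called members and, in each role, the 2 with the lowest p and the most positive. The array number limits precision. Figures were drawn with matplotlib 3.10.9.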

Additional observations from a re-analysis of the deposited data

Results flagged for a closer look

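Among the 30 members with all 4 control values, 4 had a control array far from the other controls, measured by its gap over the group's range; chance flags about 5% of such groups. Ndufs3 read 1.18 on control 4, with the lowest control at 0.95. Ndufa5 read 1.15 on control 1, with the lowest control at 0.76. Ndufb5 read 0.69 on control 1, with the lowest control at 0.02. Ndufaf3 read 1.47 on control 3, with the lowest control at 1.06. None of the 4 genes was called in the main comparison (limma; none had an unadjusted p below 0.05 either).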

How the results depend on the processing

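Results were recomputed under 25 alternatives. The members' median change lay below the median of all items in 24 of them; the exception was median centring in place of loess. The count called lower, 7 in the main setting, was within 1.5 times of it with scale normalization, no dim filter, all arrays above background, outlier spots kept or fully weighted, the mean of probes, and slide as a fixed or a random block; either slide block gave 10. It was 4 with no background subtraction (median -0.12), 2 with the scanner's processed signals and 1 in the sample channel (median -0.13). With median centring it was 0 (9 higher, median 0.32), and within slide 2 it was 1. The authors' table gave 13 (1 higher, and over all items 1948 lower and 1259 higher). The background model fitted on all spots gave 3 (median -0.35), and slide 2 alone gave 0 (limma, 5 lower and 1 higher at an unadjusted p below 0.05). Within slide 1 the median was -0.32, and with scale normalization it was -0.39. The background model on all spots, slide 2 alone and full weight for outlier spots were chosen after seeing the data. Leaving out 1 array gave 1 to 8 called lower and medians of -0.28 to -0.16. The split of lower against higher calls over all items was 778 and 593 in the main setting. It was 590 and 713 with no background subtraction and 391 and 70 with the background model on all spots. With processed signals it was 637 and 496, in the sample channel 405 and 493, and within slide 2 567 and 425. Slide as a fixed block gave 1091 and 810, and as a random block 895 and 687.

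The replicate numbers of the titles did not pair the arrays: correlations of the deviations of same-numbered arrays were 0.32, -0.27 and 0.05, and no PB-NICD array correlated best with the control of its own number. With the replicate block 5 members were called lower and the median was -0.29.

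Under median centring 27 of 35 members changed sign, beside a shift of all items to 0.31. The values were Ndufa1 0.036, Ndufa2 0.18, Ndufa3 0.51, Ndufa4 0.22, Ndufa5 0.66, Ndufa6 0.52, Ndufa7 0.73, Ndufa8 0.19, Ndufa13 0.11, Ndufab1 0.29, Ndufaf3 0.33, Ndufaf4 0.24, Ndufb2 0.22, Ndufb3 0.50, Ndufb4 0.046, Ndufb6 0.19, Ndufb8 0.36, Ndufb10 0.36, Ndufc1 0.30, Ndufs3 0.51, Ndufs4 0.18, Ndufs5 0.28, Ndufs6 0.31, Ndufs7 0.50, Ndufs8 0.41, Ndufv1 0.43 and Ndufv2 0.32. The medians were 0.32 in the N module, 0.51 in the Q module, 0.29 in the proximal arm, 0.29 in the distal arm and 0.37 in complexes II to V. In the sample channel alone Ndufa3 was 0.14, Ndufa5 0.20, Ndufa8 0.43, Ndufab1 0.033, Ndufaf3 0.027, Ndufaf4 0.030, Ndufb6 0.13, Ndufs8 0.025 and the Q module median 0.025. The other changes of sign were in uncalled members. Ndufa12 was -0.043 (with Ndufa10 at -0.016) with processed signals, -0.087 with scale normalization, -0.000874 with outlier spots kept or fully weighted, -0.064 with the replicate block (Ndufb5 -0.0079) and -0.18 with the background model on all spots (Ndufb5 -0.024). Ndufa5 was 0.064 with no background subtraction and 0.016 within slide 2 or on it alone, where Ndufa7 within slide 2 was 0.12. Within slide 1 Ndufaf3 was 0.049 and Ndufb5 -0.21, and Ndufab1 was 0.17 as a mean of probes. Leaving out 1 array gave ranges of -0.064 to 0.071 for Ndufa12, -0.0079 to 0.22 for Ndufb5, -0.086 to 0.042 for Ndufa5, -0.070 to 0.066 for Ndufaf3 and -0.14 to 0.0046 for Ndufaf4. The cause of these changes was not tested.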
